A study of Mus musculus with 8 samples.

Results

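The 10 genes described here belong to the structural maintenance of chromosomes (SMC) complexes and were measured in the striatum of adult female mice with a trapped Brd2 allele and of wildtype mice. They are Smc5 and Smc6 of the SMC5/6 complex, Smc2 and Smc4 of condensin, Smc1a, Smc3, Rad21, Stag1 and Stag2 of cohesin, and the cohesin loader gene Nipbl. Members were taken by name: every probe on the array whose gene name equals one of the 10 symbols, which gave 12 of 39429 probes and 10 of 30175 gene names. Smc5 and Stag1 had 2 probes each and the other genes 1. The set was selected on the difference of Smc5 between genotypes, which was already known; the other members were chosen by their place in the complexes. The Smc5 difference is therefore given as a description, with no test.

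SMC proteins fold back on themselves into long coiled-coil arms that end in an ATPase head, and pair into rings or hooks that hold DNA. Cohesin holds sister chromatids together in dividing cells and extrudes chromatin loops in all cells, neurons included; condensin compacts mitotic chromosomes; SMC5/6 acts in the repair and replication of DNA and restrains extrachromosomal DNA. Most cells of the adult striatum no longer divide.

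Brd2+/- females, heterozygous for a gene-trap insertion in Brd2, were set against wildtype females, all adult C57Bl/6j from the seventh generation of backcrossing. Brd2 encodes a BET-family bromodomain protein that binds acetylated histones. Heterozygous parents were crossed, and the samples of a genotype are called biological replicates; whether each was a single animal is not stated, so each error or p-value below covers sample-to-sample spread, which may be partly technical. There were 4 heterozygous and 4 wildtype samples on 4 two-colour arrays, 2 samples of one genotype to an array; replicates 1 and 3 carried Cy3 and replicates 2 and 4 carried Cy5. The tissue field names the prefrontal cortex as well as the striatum.

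Values below are normalised log2 intensities after removal of the dye effect, and differences are heterozygous minus wildtype on that scale with the standard error (SE) of limma's fit. A spot is called well above background by the scanner software. The share of such spots was 37.7% to 75.5% in heterozygous samples and 43.6% to 68.9% in wildtype samples, lower in Cy3 than in Cy5 in both. At the Brd2 probe that starts at base 4590 of its transcript, heterozygous replicates 1 to 4 measured 11.79, 11.96, 12.44 and 11.83, and wildtype replicates 1 to 4 measured 12.97, 13.11, 12.52 and 12.82. The groups did not overlap, and heterozygous replicate 3 lay closest to the wildtype samples. The difference was -0.85 (SE 0.190, n = 4 per genotype). It exceeded the spread between samples in an exact two-sided permutation test (p = 0.0286, the smallest that 4 against 4 can give). That test counted the 8 samples as independent, although the 2 samples of an array share a genotype. Differences between arrays therefore cannot be told apart from genotype. The Brd2 difference missed the threshold in limma over all probes (adjusted p = 0.390). A second Brd2 probe, at base 1265 and well above background in 3 heterozygous and 2 wildtype samples, differed by 0.29 (SE 0.170). Of 25334 probes tested, 1 passed an adjusted p under 0.05 (0.00395%), a Btbd9 probe (1.82, SE 0.140, limma adjusted p = 0.0345, named after its value was seen), and no probe passed in 13 of 21 alternatives. At an unadjusted p under 0.05 there were 2253 probes (8.89%; 4.83% lower and 4.07% higher in heterozygous samples). Markers of striatal projection neurons were all measured, and 10 of 10 had a negative difference (median -0.43, 3 without overlap between groups). For cortical excitatory neurons, 7 of 7 markers had a positive difference (median 1.43, 3 without overlap). Over all tested probes, 53.7% had a negative difference. Among those with a value in every sample, 5.21% were lower and 3.39% higher in heterozygous samples without overlap. None of these markers passed after adjustment.

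The letters of the probes are shown first for Smc5 and Stag1, because these genes had 2 probes each. The Smc5 junction probe (A_66_P119636) starts at base 2965 of the Smc5 transcript, and its 60 bases span chr19:23285037-23288243 on the minus strand (mm9, the build of the array files), 3207 genomic bases, so it crosses an exon junction. The Smc5 3′ probe (A_55_P2062632) starts 454 bases further along, at base 3419, and lies at chr19:23283224-23283283 on the minus strand without a break. Both are assigned to the same 3 RefSeq transcripts. Of the 3′ probe and of the Stag1 probes the last 30 bases are printed, with the hexamer AATAAA in capitals where present.
Smc5 junction probe: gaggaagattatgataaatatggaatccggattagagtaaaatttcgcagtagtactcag
Smc5 3′ probe: tcaagtgAATAAAagttagcagacttattg
Stag1 probe A_52_P491861: tctatagaatagtgagattcaaatacagtg
Stag1 probe A_55_P2000623: aatcaaatttttgtattttcagtgtctcct

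AATAAA is the usual polyadenylation signal in vertebrate transcripts. It was searched on the probe strand alone, and the Smc5 3′ probe was the 1 member probe that held it, against 12.59% of all probes. All member probes other than the Smc5 junction probe lie within an unbroken 60-base stretch of the genome as the files place them. In mm9 the Smc6 probe lies at chr12:11326452-11326511, the Smc2 probe at chr4:52501012-52501071 and the Smc4 probe at chr3:68838437-68838496, all on the plus strand. Of the cohesin genes with 1 probe, Smc1a is read at chrX:148496427-148496486, Smc3 at chr19:53719568-53719627 and Stag2 at chrX:39630266-39630325 on the plus strand, and Rad21 at chr15:51794326-51794385 and Nipbl at chr15:8243183-8243242 on the minus strand.

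Smc5, which encodes one arm of the SMC5/6 complex, was lower in heterozygous samples at the 3′ probe. Heterozygous replicates 1 to 4 measured 9.62, 9.39, 9.60 and 9.45, and wildtype replicates 1 to 4 measured 9.93, 10.11, 10.25 and 10.44. All heterozygous samples lay below all wildtype samples, and the probe was well above background in all 8. The mean was 9.51 ± 0.11 in heterozygous and 10.18 ± 0.22 in wildtype samples (SD, n = 4), a difference of -0.67 (SE 0.135). Converted back from log2, that difference places heterozygous samples at 62.9% of wildtype, as a ratio of geometric means. Without heterozygous replicate 3, whose Brd2 value lay nearest to wildtype, the difference was -0.70 (SE 0.154). In the Cy3 samples alone it was -0.48 (SE 0.213) and in the Cy5 samples alone -0.86 (SE 0.161), 2 samples per genotype each. This probe was the 1 member probe of 12 whose groups did not overlap. Over all tested probes with a value in every sample that share was 8.61% in either direction with 5.21% lower and 3.39% higher in heterozygous samples; since this contrast chose Smc5, nothing is read from the count.

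The Smc5 junction probe showed no such separation. Heterozygous replicates 1 to 4 measured 8.03, 7.55, 7.60 and 8.11, and wildtype replicates 1 to 4 measured 7.88, 7.80, 7.80 and 7.85. The wildtype samples lay inside the heterozygous range. The difference was -0.01 (SE 0.153), and without heterozygous replicate 3 it was 0.09 (SE 0.163). The probe was well above background in 2 heterozygous and 2 wildtype samples, the 4 labelled with Cy5, and in none of the Cy3 samples. Its spot brightness was 236.5 to 358.1 in heterozygous and 195.3 to 311.2 in wildtype samples. The same transcripts are assigned to both probes, and the difference between the 2 probes was not tested.

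Before normalisation, the spot brightness of the Smc5 3′ probe overlapped between genotypes. In Cy3 it was 806.4 and 468.6 in heterozygous replicates 1 and 3, against 777.4 and 1263.5 in wildtype replicates 1 and 3. In Cy5 it was 1258.4 and 1144.2 in heterozygous replicates 2 and 4, against 1068.3 and 1606.5 in wildtype replicates 2 and 4. Channels differed in overall brightness, however, with a median spot brightness of 288.0 to 359.3 in heterozygous and 211.9 to 362.4 in wildtype samples. The authors' deposited table divides each background-subtracted spot by the median of its own sample, and there the 3′ probe read 2.40 and 1.66 in heterozygous against 2.51 and 3.79 in wildtype Cy3 samples. In Cy5 it read 3.22 and 3.12 in heterozygous against 4.24 and 6.08 in wildtype samples. Within each dye the heterozygous samples were thus the lower ones on that scale, by a narrow gap in Cy3 between 2.40 and 2.51.

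**Figure D1:**
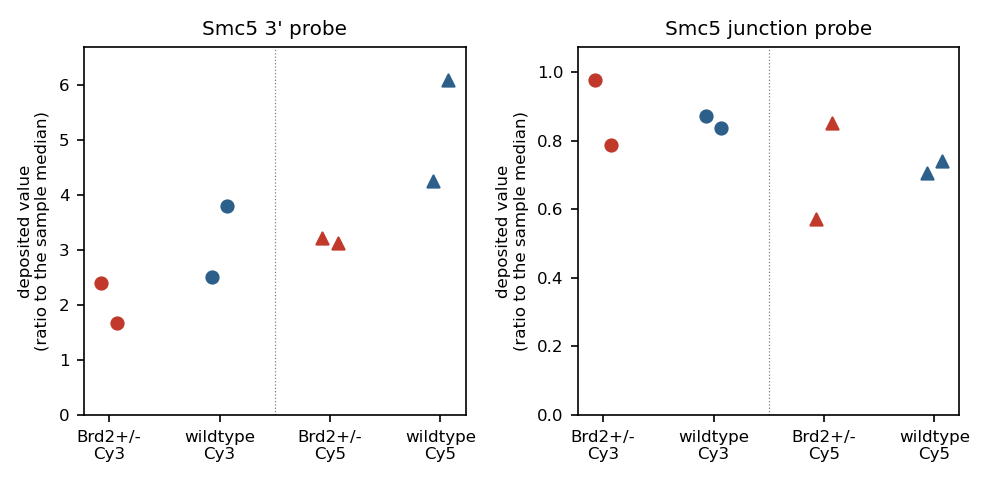
The authors' deposited ratio of each spot to its sample's median (vertical axis, linear, from 0) is plotted for the Smc5 3′ probe (left) and junction probe (right), 1 point per sample, split by dye with Brd2+/- left of wildtype. At the 3′ probe both Brd2+/- samples lie below both wildtype samples in each dye; at the junction probe they lie on either side of the wildtype samples.

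Smc6, the partner of Smc5 in the SMC5/6 complex, had a smaller difference in the same direction. Heterozygous replicates 1 to 4 measured 9.29, 9.18, 9.27 and 9.14, and wildtype replicates 1 to 4 measured 9.60, 9.63, 9.22 and 9.41. Wildtype replicate 3 lay within the heterozygous range and the other wildtype samples lay above it. The difference was -0.24 (SE 0.123) and missed the threshold (limma, adjusted p = 0.596). It was -0.13 (SE 0.223) in Cy3 and -0.36 (SE 0.142) in Cy5 alone.

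The condensin pair Smc2 and Smc4 had small negative differences that missed the threshold. Smc4 read 8.36, 8.24, 8.51 and 8.55 in heterozygous replicates 1 to 4 and 8.79, 8.76, 8.49 and 8.60 in wildtype replicates 1 to 4. Wildtype replicate 3 fell among the heterozygous samples. Smc2 read 8.63, 8.49, 8.64 and 8.46 in heterozygous replicates 1 to 4 and 8.73, 8.88, 8.59 and 8.75 in wildtype replicates 1 to 4, where again wildtype replicate 3 overlapped the heterozygous range. The differences were -0.24 (SE 0.122) for Smc4 and -0.18 (SE 0.107) for Smc2, and neither passed (limma, adjusted p = 0.594 and 0.642). Each was well above background in 3 heterozygous and 4 wildtype samples. In the Cy3 samples alone Smc2 differed by -0.02 (SE 0.192) and in the Cy5 samples alone by -0.34 (SE 0.131); the difference between dyes was not tested.

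Within the cohesin ring the estimated differences had both signs, but none passed, so opposite changes are not shown. Smc3, which pairs with Smc1a to form the ring's arms, read 11.46, 11.05, 11.08 and 11.29 in heterozygous replicates 1 to 4 and 11.47, 11.54, 11.30 and 11.43 in wildtype replicates 1 to 4. Its difference was -0.22 (SE 0.127, limma adjusted p = 0.640), and heterozygous replicate 1 lay among the wildtype samples. Smc1a averaged 12.80 ± 0.13 in heterozygous and 12.79 ± 0.16 in wildtype samples (SD, n = 4), a difference of 0.01 (SE 0.123). Its groups overlapped almost wholly, at 12.61 to 12.91 in heterozygous and 12.57 to 12.92 in wildtype samples. The 2 ring arms of cohesin thus gave differences of unlike size in the same samples, and that gap between them was not tested.

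Rad21 encodes the kleisin subunit that closes the cohesin ring, and it had the largest positive difference among the members. Heterozygous replicates 1 to 4 measured 13.22, 12.67, 13.28 and 13.33, and wildtype replicates 1 to 4 measured 12.93, 13.03, 12.56 and 12.96. Heterozygous replicates 1, 3 and 4 lay above every wildtype sample, and replicate 2 lay below wildtype replicates 1, 2 and 4. The difference was 0.25 (SE 0.184) and missed the threshold (limma, adjusted p = 0.688). Without heterozygous replicate 2 it was 0.44 (SE 0.125, adjusted p = 0.430) and without wildtype replicate 3 it was 0.13 (SE 0.170). It was 0.51 (SE 0.223) in Cy3 alone and 0.001 (SE 0.239) in Cy5 alone, where replicate 2 belongs.

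The STAG subunits bind Rad21 and help place cohesin on chromatin. At the Stag1 probe that starts at base 5833 (chr9:100858787-100858846, plus strand, mm9), heterozygous replicates 1 to 4 measured 10.28, 10.03, 9.73 and 10.11 and wildtype replicates 1 to 4 measured 10.44, 10.42, 10.31 and 10.21. Heterozygous replicate 1 was the one heterozygous sample above the lowest wildtype sample. The difference was -0.31 (SE 0.139), the lowest among the members other than Smc5 (limma, adjusted p = 0.570), and -0.18 (SE 0.110) without heterozygous replicate 3. At the Stag1 probe that starts at base 4735 (chr9:100857689-100857748), values ran from 7.89 to 9.13 in heterozygous and from 7.86 to 9.17 in wildtype samples, and the difference was 0.15 (SE 0.345). That probe was well above background in 3 samples of each genotype and was read 0.86 higher in Cy5 than in Cy3 before removal of the dye effect. Stag2 measured 11.09, 10.83, 11.13 and 11.11 in heterozygous replicates 1 to 4 and 11.28, 11.26, 11.02 and 11.32 in wildtype replicates 1 to 4, a difference of -0.18 (SE 0.120, limma adjusted p = 0.669). Wildtype replicate 3 lay among the heterozygous samples for Stag2, as it did for Smc6, Smc2 and Smc4.

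Nipbl, which encodes the protein that loads cohesin and drives loop extrusion, averaged 8.39 ± 0.35 in heterozygous and 8.38 ± 0.09 in wildtype samples (SD, n = 4). Heterozygous replicates 1 and 4 measured 8.52 and 8.82 and replicates 2 and 3 measured 8.11 each, on either side of the wildtype range of 8.26 to 8.47. The difference was 0.01 (SE 0.177), with the probe well above background in 3 samples of each genotype. The same spread, with heterozygous replicates 1 and 4 above and replicates 2 and 3 below the wildtype samples, was seen at the Smc5 junction probe.

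**Figure D2:**
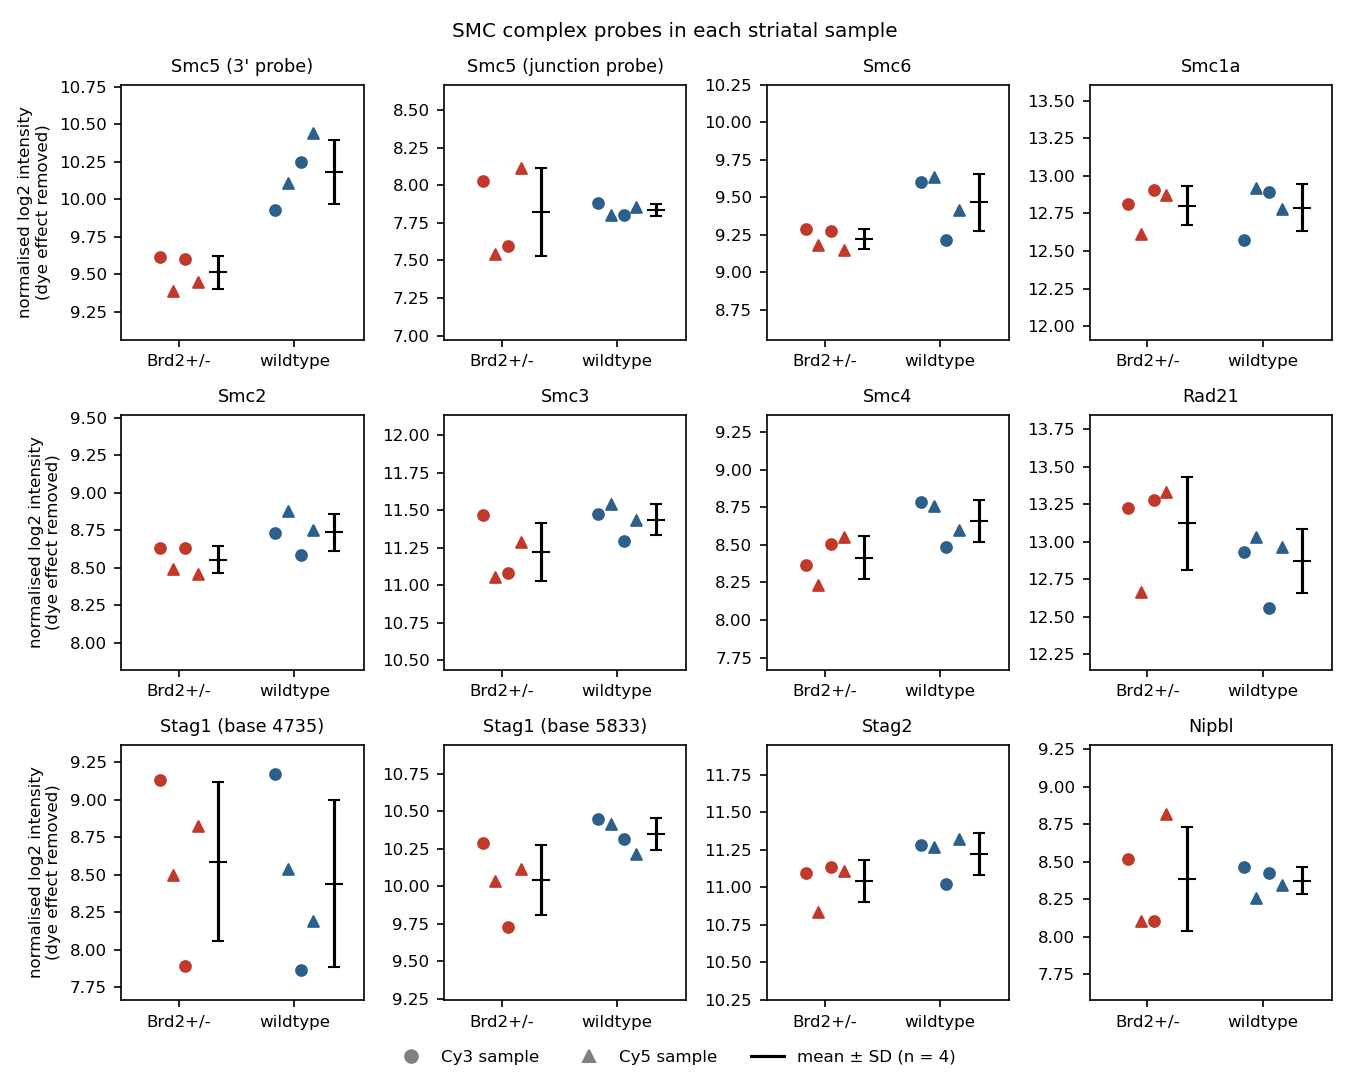
Normalised log2 intensity after removal of the dye effect (vertical axes, each spanning the same 1.7 log2 units) is plotted for the 12 member probes, 1 point per sample, with mean ± SD beside each group of 4 and Brd2+/- left of wildtype. The groups separate at the Smc5 3′ probe and overlap in the other 11 panels.

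Over the set, 8 of the 12 probes had a negative difference, against 53.7% of all probes tested. The median difference was -0.18 against -0.02 over all tested probes. These values, and those by setting below, include the Smc5 3′ probe, whose difference chose the set. No shift of the set is therefore read from them. The count of negative probes was 10 from the scanner's processed signals, 10 after quantile normalisation, 9 in the deposited table and 7 with loess alone, where the median over all probes was 0.096 and the members' median was -0.02. At an unadjusted p under 0.05 there was 1 member probe, the lower Smc5 3′ probe, against 8.89% of all probes (4.83% lower, 4.07% higher); the count includes the contrast that chose Smc5, so nothing is read from it, and none of the 12 passed after adjustment. Leaving out Smc5, 6 of 10 probes had a negative and 4 a positive difference, against 53.7% negative over all probes tested. These 10 differences lay between -0.31 and 0.25, with none at an unadjusted p under 0.05. All 12 member probes passed the filter on dim probes, so none is missing from these counts. Without heterozygous replicate 3 the median was -0.17 with 8 of 12 negative. In Cy3 alone the median was -0.07 with 10 of 12 negative and in Cy5 alone -0.26 with 8 of 12 negative.

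Other subunits and regulators of the 3 complexes were taken from a list of 34 genes, of which 24 had a probe that passed the filter. Of the 24, 15 had a negative and 9 a positive difference, the median was -0.07, and none passed after adjustment (smallest adjusted p = 0.413 in limma). Among 20 further cohesin genes, both ring subunits and regulators, 12 were tested. They ran from Haspin, a histone kinase gene of mitosis, at -0.58 (SE 0.310) to Pds5a, whose product regulates cohesin release, at 0.36 (SE 0.247). Haspin was well above background in 4 of 8 samples, the fewest the filter allows. Its heterozygous mean of 6.78 lay near the 6.74 of Ncapg, which was well above background in 0 samples. Among 6 further condensin genes 5 were tested, from Ncaph2 at -0.21 (SE 0.160) to Ncapd2 at 0.18 (SE 0.193). Among 8 genes listed with SMC5/6, 7 were tested, from Smchd1, a noncanonical SMC protein gene that acts on the inactive X chromosome, at -0.45 (SE 0.113) to Slf2, a gene for an SMC5/6 recruitment factor, at 0.51 (SE 0.461).

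At the brightest probe of each gene, Smchd1, Pds5b and the SMC5/6 subunit gene Nsmce1 were the 3 of 24 with an unadjusted p under 0.05. The same 3 had groups that did not overlap (2 of the 3 with a value in every sample). All 3 were lower in heterozygous samples. Over all probes the shares were 8.89% and 8.61% in either direction, and 4.83% and 5.21% lower in heterozygous samples. Whether 3 of 24 exceeds these shares was not tested. Pds5b, Nsmce1 and Slf1 were named after their values were seen. Pds5b differed by -0.56 (SE 0.171) at its brightest probe and by -0.17 (SE 0.229) and 0.01 (SE 0.113) at its other probes. Smchd1 differed by -0.11 (SE 0.0916) at a second probe. Slf1, a gene for an SMC5/6 localisation factor, differed by 0.03 (SE 0.159) at its brightest probe and by -0.30 (SE 0.108) without overlap at a second probe (limma, adjusted p = 0.511). Nsmce1, a RING-finger subunit gene, averaged 10.37 in heterozygous and 10.71 in wildtype samples, a difference of -0.34 (SE 0.104). The 3 further subunit genes of the SMC5/6 complex, also named after their values were seen, had small differences that missed the threshold. Nsmce3 differed by 0.25 (SE 0.173), Nsmce2, which encodes the SUMO ligase of the complex, by 0.04 (SE 0.119), and Nsmce4a by -0.02 (SE 0.115).

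**Figure D3:**
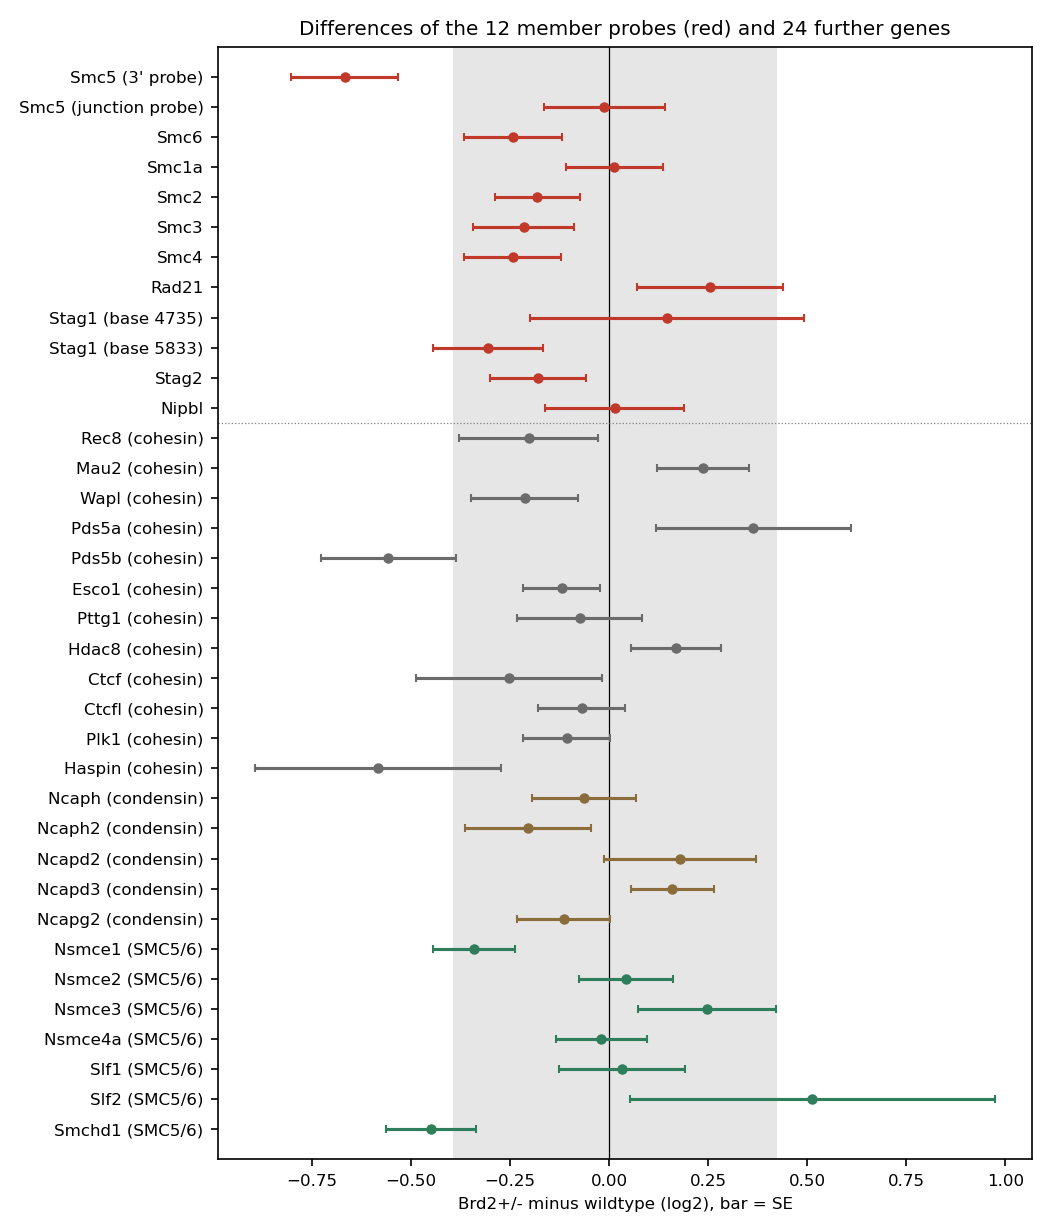
Differences between genotypes (horizontal axis, Brd2+/- minus wildtype, log2; bars are SE) are shown for the 12 member probes (above the dotted line) and the brightest tested probe of 24 further genes of the complexes; the grey band holds the 5th to 95th percentile of all 25334 tested probes, -0.39 to 0.42. The Smc5 3′ probe at -0.67, whose difference chose the set, is the one member probe outside the band. Of the further genes, Haspin, Pds5b, Smchd1 and Slf2 also lie outside it.

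Genes outside the set were ranked by the likeness of their values over the 8 samples to those of the Smc5 3′ probe. Likeness was the root mean square difference between dye-adjusted values centred on their mean, over 14340 genes with the members left out. The measure is not scaled, so it largely follows the size of the genotype difference that chose Smc5. The 5 nearest were Pnp2, H4c3, Celf5, Slc38a8 and Gm11627, at 0.096 to 0.136 log2 units. Measured in the same way, the nearest other member was Smc2, at 0.294, and the Smc5 junction probe stood at 0.398. Their smaller genotype differences set them apart on this measure, so nothing is read from those distances. Since the 5 nearest genes were found by their likeness to a probe chosen for its difference, their own differences of -0.71 to -0.49 are a description.

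No marker of another cell type passed after adjustment, and the lists differed in how far their levels stood apart. Relative to the wildtype mean, the 7 cortical markers averaged 0.81 to 2.30 in heterozygous and -0.36 to 0.80 in wildtype samples. The 10 striatal projection neuron markers averaged -1.04 to 0.05 in heterozygous and -0.10 to 0.13 in wildtype samples. The 6 choroid plexus markers averaged -0.88 to 1.97 in heterozygous samples, highest in replicate 3, and -0.28 to 0.15 in wildtype samples. The median differences of the oligodendrocyte, astrocyte and microglia lists were 0.05, -0.03 and -0.10. The part of these markers in the Smc5 difference was not tested, and in bulk tissue fewer cells of a type and less RNA per cell cannot be told apart. Of 12 genes of cycling cells 5 were tested. At the brightest probe of each, Top2a, Cdk1, Aurkb, Cenpf and Nusap1 were well above background in 0 of 8 samples. Kif11 was so in 1, Bub1 in 2, Mki67, Ccnb1, Ccnb2 and Birc5 in 4, and Pcna in 8. Pcna differed by -0.22 (SE 0.0974, limma adjusted p = 0.565). It was the 1 of 5 tested whose groups did not overlap, against 8.61% of all probes. The 5 tested genes averaged -0.13 to 0.01 in heterozygous and -0.14 to 0.17 in wildtype samples.

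**Figure D4:**
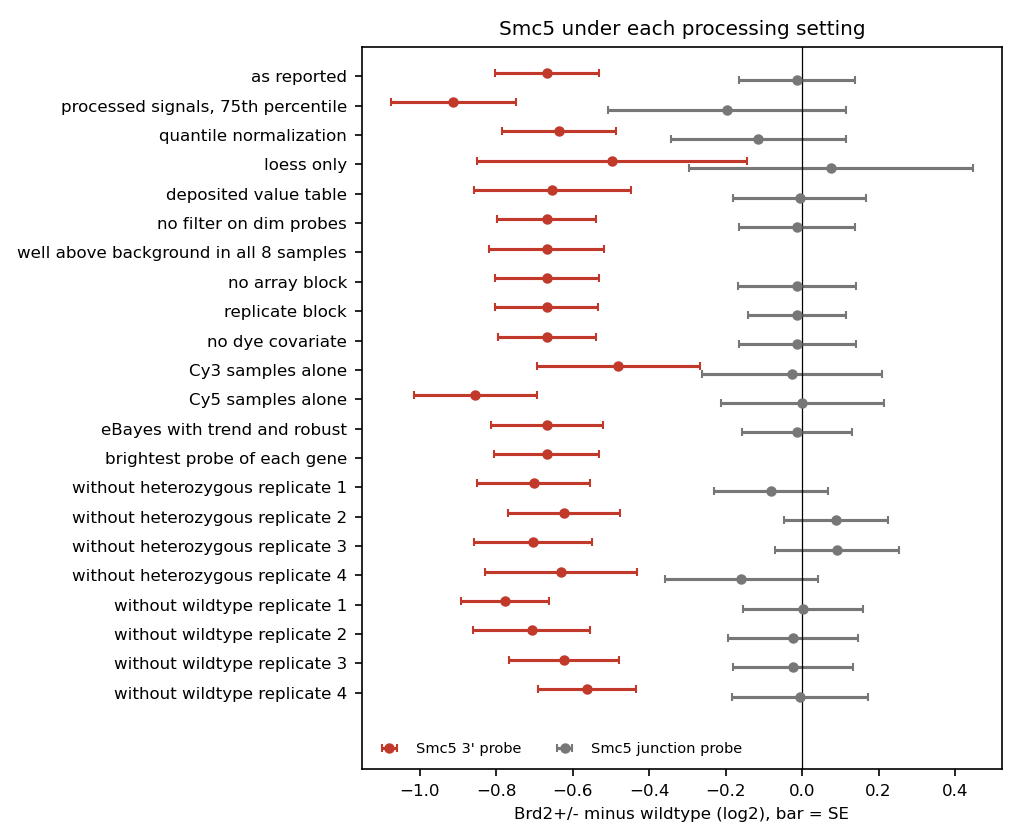
The Smc5 difference (horizontal axis, Brd2+/- minus wildtype, log2; bars are SE) is shown at the 3′ probe (red) and the junction probe (grey) as reported and under each other processing setting or left-out sample. The 3′ probe, whose difference in these samples chose Smc5, lies between -0.91 and -0.48, and the junction probe between -0.20 and 0.09.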

How the data were processed

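Total RNA from striatum was amplified with T7 polymerase and carried Cy3 or Cy5, per the labels' protocols, and each sample's own dye channel was read from its scanner file. Per the file headers, spot and local background intensities come from version 10.7.3.1 of Agilent Feature Extraction (design 026655), and processed intensities stand beside them. The authors' deposited value table holds a ratio: median spot intensity less local background, over the column's median (100% of values matched within a relative tolerance, column medians 1; not log-transformed, no centring of genes). It left 2167 to 3629 spots empty in Cy5.

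Mean intensities were corrected with normexp (offset 50), normalised by loess within and Aquantile between arrays, and split into log2 values per channel (limma 3.58.1, statmod 1.5.0, R 4.3.3), computed here from the deposited intensities. Of 43020 non-control spots, flagged outliers (230 to 978 per sample) were dropped and replicate spots averaged; no spot was saturated. Probes well above background in at least 4 of 8 samples were tested (25334) in a model of genotype plus dye, with array as random block (consensus correlation -0.0116), with Benjamini-Hochberg adjustment. Each array held 1 genotype, so the array entered as a block nested in genotype. Members and lists were chosen with earlier results of these data known; the naming rule takes all member probes, Brd2, the extremes of each complex and the 5 genes most like Smc5. Further genes were matched by current or older symbol or by RefSeq accession (27234 probes). Alternatives covered background, normalisation, the value table, filter, blocks, dye, variance model, probe choice and each sample. The fit was tested on simulated data. Figures used matplotlib 3.10.9.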

Additional observations from a re-analysis of the deposited data

Results flagged for a closer look

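Among 28 groups of 4 values (14 probes of the members and Brd2, both genotypes), 2 held a sample far from the other 3 by Dixon's gap test, where chance gives about 1 in 20. Both were heterozygous replicate 2. For Rad21 it measured 12.67, against 13.22 for the nearest heterozygous sample. For Stag2 it measured 10.83, against 11.09 for the nearest. Without it the Rad21 difference was 0.44 in place of 0.25 and the Stag2 difference was -0.10 in place of -0.18. No cause was tested.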

How the results depend on the processing

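The Smc5 3′ difference of -0.67 kept its direction under all 21 alternatives. It was -0.91 from the scanner's processed signals, -0.50 (SE 0.352) with loess only, -0.48 in Cy3 samples alone and -0.86 in Cy5 samples alone. With 1 sample left out it was -0.78 to -0.56. All alternatives reuse the samples whose difference chose Smc5, so the kept direction is a description and not independent support. No member and no other gene of the complexes passed the threshold under any of the 21. The 1 probe past the threshold became 0 with loess only, the deposited value table, no filter on dim probes, the replicate block, Cy3 samples alone and the brightest probe of each gene, and in 7 of the 8 fits with 1 sample left out (range 0 to 1; it stayed at 1 without heterozygous replicate 3), 13 of the 21 in all. Some differences that had missed the threshold turned sign. Smc1a was -0.13 from processed signals, -0.067 in the value table and -0.10 in Cy5, and -0.069 to 0.089 with 1 sample left out. Nipbl was -0.39 from processed signals, -0.18 after quantile normalisation and -0.13 in Cy3, and -0.19 to 0.15 with 1 sample left out. The Stag1 probe at base 4735 was -0.012 after quantile normalisation and -0.0028 in Cy3, and -0.11 to 0.45 with 1 sample left out. The Smc5 junction probe was 0.076 with loess only and 0.00045 in Cy5, and -0.16 to 0.091 with 1 sample left out. The second Brd2 probe, 0.29 over all samples, was -0.038 in Cy5. The cause was not tested. Same-numbered samples did not deviate together (correlations 0.17, -0.30, -0.19 and -0.26 for numbers 1 to 4), so no pairing by number was seen. Samples of unlike number correlated at up to 0.45, so these values cannot show whether a weak pairing exists. With the replicate block 0 probes passed and the Smc5 3′ difference was -0.67. Signal not well above background in some samples limits the Smc5 junction, Nipbl and one Stag1 probe most.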
